A study of Mus musculus with 4 samples.

Results

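The data describe 10 genes of the insulin-like growth factor axis and of hepatic growth factor signalling in mouse liver. They are the ligands Igf1, Hgf and Fgf21, the receptors Ghr, Met and Egfr, and the Igf carriers Igfals, Igfbp1, Igfbp2 and Igfbp4. The genes are given by name, out of 21938 protein-coding genes, with earlier results of these data known. Each was located with GENCODE vM21 in GRCm38, and its region was the gene body joined to a TSS window, 10 kb on either side of the transcription start site (TSS), taken as the 5′ end of the gene. Every peak in the region was collected. All 10 genes were found, and 41 peaks fell in their regions, 4 in ATACseq and 37 in H2A.Z.

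Peaks came from livers of male C57Bl/6 mice aged 8 to 12 weeks. WT mice carried floxed Uhrf1 alleles without Cre. Uhrf1hepKO mice carried the same floxed alleles and Alb:Cre, which deletes Uhrf1 in the hepatocyte lineage. Which other liver cells kept Uhrf1 was not measured here. Each genotype had 1 ATACseq library, which marks accessible DNA cut by the Tn5 transposase, and 1 H2A.Z library, which marks nucleosomes holding this histone variant. Whether both assays used the same animal is not given in the sources used here. There was 1 library for each assay and genotype, so the data carry no replicate error and allow no test, and genotype, animal and library cannot be told apart. The tissue is a mixture, so fewer cells with a site and less signal per cell cannot be told apart either.

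Growth hormone binds its receptor GHR on hepatocytes and drives the transcription of Igf1 through JAK2 and STAT5. Circulating IGF1 travels with binding proteins and with the acid-labile subunit encoded by Igfals. HGF, made mainly by non-parenchymal cells, and the ligands of EGFR act on hepatocytes and are needed for liver regeneration. UHRF1 is required to maintain DNA methylation when cells divide. H2A.Z commonly sits in the nucleosomes that flank the start sites of active or poised genes.

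The lists used held 10582 WT and 10764 Uhrf1hepKO ATACseq peaks, and 51450 WT and 47135 Uhrf1hepKO H2A.Z peaks. The median fold enrichment over local background was 4.31 and 4.05 in ATACseq and 5.12 and 5.35 in H2A.Z. Folds were not scaled between libraries, so each is given with its percentile in its own list. For H2A.Z the fold and p-value also gave the number of fragments over the summit, with an exact Poisson 95% interval that covers counting error only. At the usual background, 3.1 fragments in WT and 3.3 in Uhrf1hepKO, no listed H2A.Z peak had fewer than 11 and 12 fragments. Of 10 hepatocyte markers, 2 in WT and 3 in Uhrf1hepKO had an ATACseq peak in the TSS window, with Apoa2 and Tat in both genotypes and Alb in Uhrf1hepKO only. H2A.Z peaks were there at 3 of these markers in WT and 1 in Uhrf1hepKO. Over all protein-coding genes the WT and Uhrf1hepKO shares were 34.4% and 32.4% in ATACseq, and 58.4% and 56.5% in H2A.Z. The hepatocyte markers Apoa1, Apob, Cps1, Hnf4a and Serpina1c had no peak there in any list, so a missing call does not show a site without signal. None of the 15 Kupffer, endothelial and stellate cell markers had an ATACseq peak, and Sox9 was the 1 of 5 cholangiocyte markers with one, in WT. H2A.Z peaks were at 5 of these 20 markers in WT (Csf1r, Lyve1, Dcn, Sox9 and Spp1) and at the same ones except the stellate gene Dcn in Uhrf1hepKO. Uhrf1 had 1 peak within 1 kb of its TSS in each list, which does not test the deletion.

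Few of the 10 genes had ATACseq peaks. In the TSS window, 2 of 10 genes had a WT peak, Igfbp1 and Egfr, beside 34.4% of all protein-coding genes. In Uhrf1hepKO it was 1 of 10, Igfbp1, beside 32.4%. Counting from any coding TSS made it 3 and 2 genes, through Igfals. With 10 genes these counts do not set the group apart from all genes. Within 1 kb the counts were 1 of 10 in WT, Egfr, and 0 of 10 in Uhrf1hepKO, beside 26.4% and 24.1%. Over the 864443 bp of the 10 regions there were 0.347 WT peaks per 100 kb and 0.116 in Uhrf1hepKO, against 0.794 and 0.786 over the regions of all genes. The all-gene values sum gene by gene, so DNA and peaks shared by overlapping regions count more than once. The 10 regions include long gene bodies, 265733 bp in Ghr, and the densities were not matched for gene length, so they do not show depletion.

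H2A.Z was found at more of them. In WT, 5 of 10 genes had an H2A.Z peak in the TSS window (Igfbp2, Igfbp4, Ghr, Fgf21 and Met), beside 58.4% of all genes. In Uhrf1hepKO the same 5 genes and Egfr had one, 6 of 10, beside 56.5%. Within 1 kb the counts were 4 of 10 and 5 of 10, beside 46.0% and 44.5%, Fgf21 being the gene that dropped out. These shares lay near those of all genes. Igfals, counted from its annotated 5′ end, is not among them, although it has peaks at its coding TSS. Per 100 kb there were 1.85 H2A.Z peaks in WT and 2.43 in Uhrf1hepKO, against 3.37 and 3.07 over all genes, with the same limits as the ATACseq densities.

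**Figure D1:**
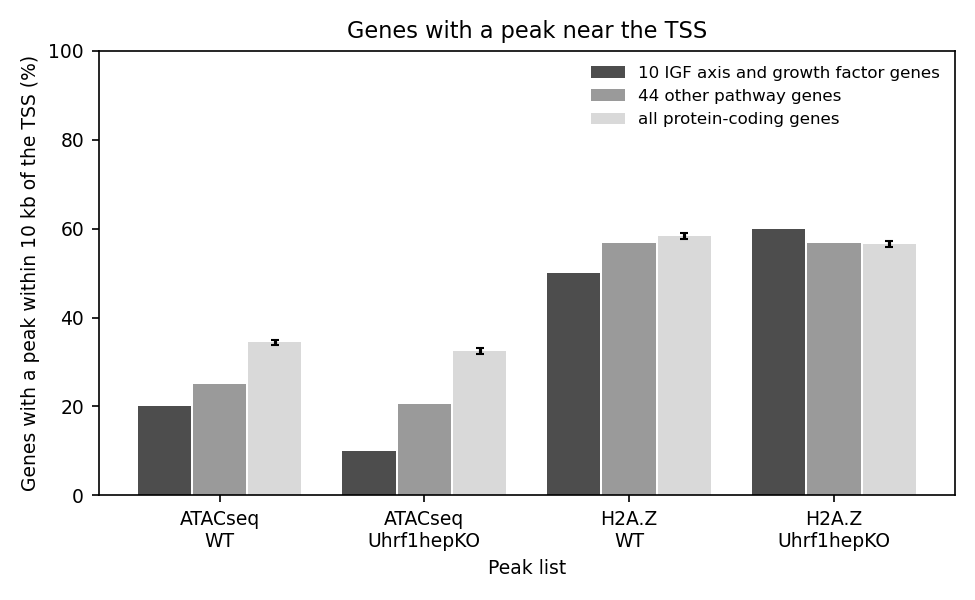
Percentage of genes with a peak in the TSS window (10 kb on either side), by list, for the 10 genes, 44 other pathway genes and all 21938 protein-coding genes. Whiskers on the last are Wilson 95% intervals. In ATACseq the 10 genes reached 2 and 1 genes, and in H2A.Z 5 and 6.

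Igf1, on the plus strand at chr10:87858265-87937042, encodes the main growth-promoting hormone released by the liver. It had no peak in its TSS window in any list. The region within 500 bp of the TSS holds 10 CpGs, which puts Igf1 in the lowest of 3 classes of genes by CpG number. In that class 8.66% of genes had WT H2A.Z within 1 kb and 2.15% had a WT ATACseq peak. Its peaks lay inside introns. WT had 1 ATACseq peak, centred at +43859 bp, with a fold of 3.61 at percentile 12.9 of its list and a −log10 q of 1.32. No Uhrf1hepKO ATACseq peak met it, the nearest to the TSS being 133456 bp away.

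Uhrf1hepKO had 3 H2A.Z peaks in Igf1 and WT none. Their summits lay at +27416, +36504 and +69088 bp. The first had 19 fragments (11.4 to 29.7), the second 22 (13.8 to 33.3) and the last 20. Their percentiles in the Uhrf1hepKO list were 30.4, 48.9 and 36.8. The second had a fold of 5.35, the median fold of that list, and the others were below it. The WT H2A.Z peak nearest to the TSS was 70065 bp upstream of it. The antisense gene Igf1os starts at +5116 bp, with no peak near it.

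The intronic ATACseq peak of Igf1 is shown because STAT5 is the known mediator of growth hormone action on this gene. It spans chr10:87902050-87902199, given on the plus strand of GRCm38. Capitals mark the matches to the STAT letters TTCNNNGAA, 2 in 150 bases. Of all WT ATACseq peaks, each taken as a window of that length, 3.55% held at least 1 match.
Igf1 intron, WT ATACseq: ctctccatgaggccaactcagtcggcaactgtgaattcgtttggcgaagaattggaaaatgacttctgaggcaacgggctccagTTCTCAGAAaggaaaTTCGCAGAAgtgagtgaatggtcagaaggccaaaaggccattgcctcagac
The matches begin at bases 85 and 100 of the peak. A match of letters describes the sequence and is not a measured binding site.

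Hgf, at chr5:16553495-16620152, encodes the ligand of MET. It had the fewest peaks, with 1 WT H2A.Z peak at +53151 bp and nothing in the other lists. That peak had 13 fragments (6.92 to 22.2) at percentile 4.93, so it was among the weakest of its list. It lies in an intron of Hgf and inside Gm42975, an unconfirmed transcript annotated there. The nearest ATACseq peaks were 681799 bp from the TSS in WT and 841487 bp in Uhrf1hepKO, the longest gaps of the 10 genes. With 17 CpGs near its TSS, Hgf falls in the same low CpG class as Igf1.

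Fgf21, at chr7:45613886-45615490 on the minus strand, encodes a hormone released by the liver in fasting. Its peaks were all in H2A.Z and lay beyond the 3′ end of the gene. One site was called in both genotypes, with 17 fragments at +4139 bp in WT and 15 at +4130 bp in Uhrf1hepKO. Repeat-masked bases made up 80.8% of the WT peak and 56.3% of the Uhrf1hepKO peak there. A WT peak at +4554 bp, with 24 fragments at percentile 67.5, had no Uhrf1hepKO peak on it, the nearest being 219 bp away. The start sites of Fut1 and Izumo1 lie at −1799 and −6321 bp, without peaks.

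Ghr had the most H2A.Z peaks near its TSS. The gene runs over 265733 bp at chr15:3317760-3583492 on the minus strand, and encodes the growth hormone receptor. In WT, summits lay at +99, −179, −902, −5900 and −8125 bp with 24, 21, 29, 14 and 16 fragments. In Uhrf1hepKO, summits lay at +92, −149, −889 and −6046 bp with 25, 22, 31 and 15 fragments. The same 4 sites were called in both genotypes, and the site at −8125 bp in WT only, where the nearest Uhrf1hepKO peak was 1913 bp away. The strongest of the 10 genes' peaks by fold was the one at −902 bp in WT and −889 bp in Uhrf1hepKO, at percentile 81.9 in WT and 80.5 in Uhrf1hepKO. No H2A.Z peak lay deeper in the long Ghr gene, and no ATACseq peak lay within it in either genotype.

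The 250 bases before the first coding transcript of Ghr, which starts at +262 bp, are shown because H2A.Z peaks covered 150 of them in WT and 139 in Uhrf1hepKO. They span chr15:3583231-3583480, given on the minus strand. Capitals mark CpGs, 18 here against a median of 8 over the same window in all genes.
Ghr: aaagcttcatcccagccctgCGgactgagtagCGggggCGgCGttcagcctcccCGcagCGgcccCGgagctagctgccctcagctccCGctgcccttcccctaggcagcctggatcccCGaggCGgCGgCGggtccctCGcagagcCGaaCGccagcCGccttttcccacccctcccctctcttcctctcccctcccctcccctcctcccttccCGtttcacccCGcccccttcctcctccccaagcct
The CpGs are spread over most of the window and thin out in the run of C and T near its 3′ end.

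Met, at chr6:17463800-17573980, encodes the HGF receptor. It had 2 H2A.Z peaks in WT and 4 in Uhrf1hepKO. Upstream of the TSS, the WT summit at −418 bp had 17 fragments, and the Uhrf1hepKO summit of the peak that met it, at −582 bp, had 15. A further Uhrf1hepKO peak at −89 bp had 18 fragments and lay 233 bp from the WT peak. Far inside the gene, a site at +105241 bp in WT and +105237 bp in Uhrf1hepKO was called in both genotypes. It had 32 fragments over a background of 4.3 in WT and 29 over 4.93 in Uhrf1hepKO, the highest local backgrounds of the paired sites. An intronic peak at +78207 bp, with 27 fragments at percentile 70.1, was called in Uhrf1hepKO only, 26900 bp from any WT peak. It lies at −4966 bp from the start of a shorter coding transcript of Met. Met had no ATACseq peak, and the nearest lay 230097 bp from its TSS in WT.

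Egfr, at chr11:16752203-16918158, encodes the receptor for EGF and its relatives. It was the one gene with an ATACseq peak at its TSS, in WT. That peak reached from 95 bases before the TSS to 85 bases after it, with a fold of 3.73 at percentile 20.3 and a −log10 q of 1.54. In Uhrf1hepKO the nearest ATACseq peak was 199004 bp away. H2A.Z went the other way. Uhrf1hepKO had peaks at −963 and −244 bp with 19 and 20 fragments, and the nearest WT H2A.Z peak was 55094 bp away. The ATACseq and H2A.Z peaks at the Egfr TSS thus came from different genotypes and did not overlap. The antisense gene Egfros starts at +78499 bp, with no peak near it.

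The Egfr sequence is shown because both assays bear on it. The window chr11:16751953-16752202, on the plus strand, has its last 95 bases under the WT ATACseq peak and its first 53 under a Uhrf1hepKO H2A.Z peak. It holds 11 CpGs, again in capitals.
Egfr: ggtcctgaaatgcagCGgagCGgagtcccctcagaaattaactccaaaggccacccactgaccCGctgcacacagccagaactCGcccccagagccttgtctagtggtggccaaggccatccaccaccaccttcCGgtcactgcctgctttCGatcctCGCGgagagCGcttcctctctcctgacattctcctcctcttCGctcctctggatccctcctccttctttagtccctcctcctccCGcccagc
The SP letters GGGCGG, or their reverse complement, were found once in the Egfr ATACseq peak and in 30.5% of WT ATACseq windows of the same length.

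**Figure D2:**
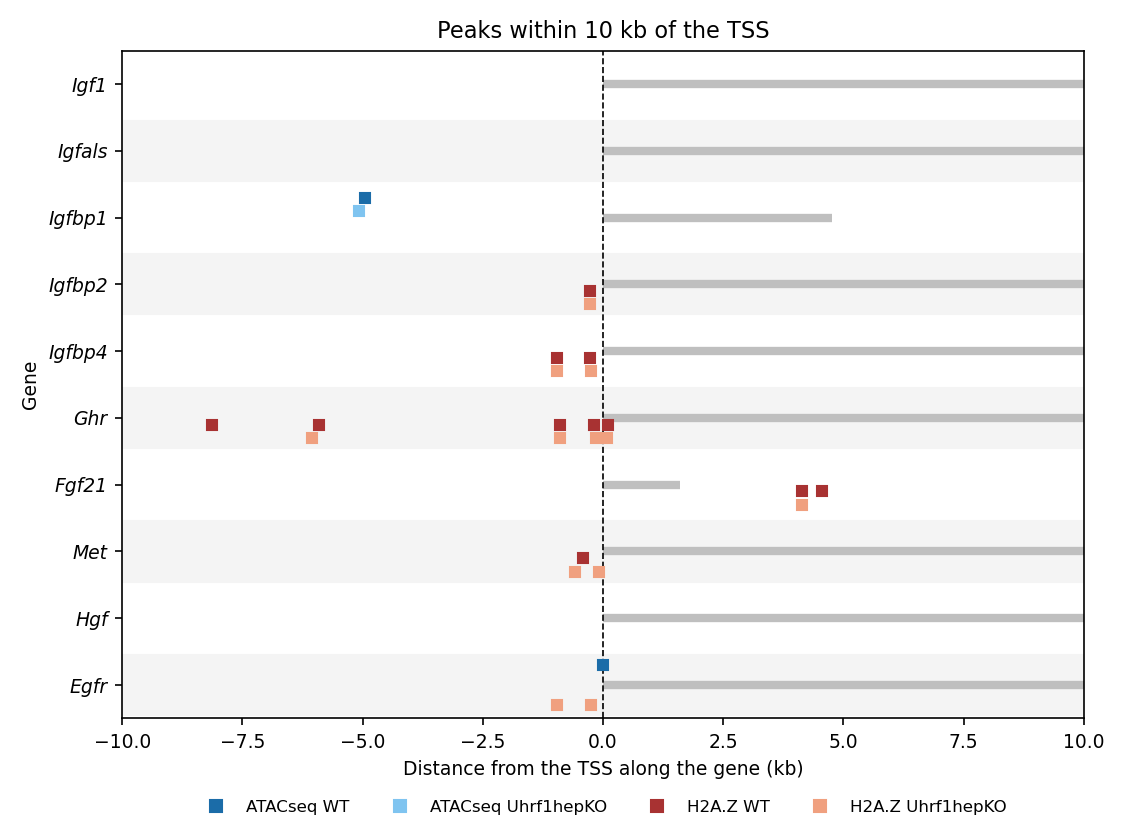
Summits of H2A.Z peaks and centres of ATACseq peaks in the TSS window of each gene, by distance along the direction of transcription in kb. Grey bars are gene bodies and the dashed line is the TSS. Ghr has summits from −8125 to +99 bp, and Egfr has an ATACseq mark in WT and H2A.Z marks in Uhrf1hepKO.

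Igfals, at chr17:24865997-24882010, encodes the acid-labile subunit that keeps IGF1 in circulating complexes. Its annotated 5′ end belongs to processed transcripts, and its coding TSS lies at +12261 bp. H2A.Z peaks stood just before this coding TSS in both genotypes. Measured from it, the WT summit was at −294 bp with 22 fragments. In Uhrf1hepKO summits lay at −857, −558 and −275 bp with 18, 24 and 21 fragments. The peaks at −294 and −275 bp met, with summits 19 bp apart, and the other Uhrf1hepKO peaks lay 490 and 146 bp from the WT peak. Taking 10 kb on either side of the coding TSS added an ATACseq peak in each genotype, at +8224 bp in WT and +8249 bp in Uhrf1hepKO, and a WT H2A.Z peak at +8670 bp. The ATACseq peaks lay at the start sites of the neighbours Nubp2 and Spsb3, 133 and 136 bp from the nearest of them.

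Igfbp1, at chr11:7197782-7202546, encodes a binding protein induced in fasting. Counted from annotated 5′ ends, it was the one gene with an ATACseq peak in the TSS window in both genotypes, about 5 kb upstream. The WT peak was centred at −4955 bp with a fold of 3.86 at percentile 27.7. The Uhrf1hepKO peak was centred at −5069 bp with a fold of 3.78 at percentile 37.6. They shared 85 bp, which is less than the 244 bp of the WT peak and the 154 bp of the Uhrf1hepKO peak. No H2A.Z peak lay within 61553 bp of the TSS in WT or 63945 bp in Uhrf1hepKO. The start of Gm11985 lies at −9213 bp, on the far side of the peaks.

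The WT peak, chr11:7192706-7192949 on the plus strand, is shown with the 85 bases shared by both genotypes in capitals.
Igfbp1 upstream, WT ATACseq: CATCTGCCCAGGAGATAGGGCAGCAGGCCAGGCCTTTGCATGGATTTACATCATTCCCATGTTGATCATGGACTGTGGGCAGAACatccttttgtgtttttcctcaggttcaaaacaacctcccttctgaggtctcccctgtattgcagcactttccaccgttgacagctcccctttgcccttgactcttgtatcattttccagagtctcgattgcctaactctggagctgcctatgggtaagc
The C/EBP letters TTGCNNAA occurred once in it, as in 11.0% of WT ATACseq windows of this length. The 250 bases before the Igfbp1 TSS, chr11:7197532-7197781, had no peak in any list. They hold 5 CpGs, in capitals.
Igfbp1: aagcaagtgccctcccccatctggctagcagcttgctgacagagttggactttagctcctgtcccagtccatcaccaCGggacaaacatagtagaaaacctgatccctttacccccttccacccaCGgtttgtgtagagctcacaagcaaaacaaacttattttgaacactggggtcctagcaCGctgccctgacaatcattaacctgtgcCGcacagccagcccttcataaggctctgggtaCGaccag
The HNF1 letters GTTAAT occur in it on 1 of the strands, as in 5.96% of the windows of all genes.

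Igfbp2, at chr1:72824503-72852474, encodes a binding protein abundant in blood. H2A.Z was called in both genotypes just before its TSS and in an intron. The promoter summits were at −266 bp in WT and −281 bp in Uhrf1hepKO, with 18 fragments in each. The intronic summits were at +18511 bp with 18 fragments and at +18678 bp with 22. A second intronic WT peak at +18121 bp, with 19 fragments, lay 319 bp from the nearest Uhrf1hepKO peak. Igfbp2 had no ATACseq peak within 32063 bp of its TSS in WT or 46672 bp in Uhrf1hepKO.

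Igfbp4, at chr11:99041244-99054392, encodes an inhibitory binding protein that is cleaved by PAPP-A. It had the same pair of H2A.Z sites in both genotypes and no other peak. At the outer site, the WT summit at −966 bp had 23 fragments and the Uhrf1hepKO summit at −963 bp had 20. At the inner site, the WT summit at −265 bp had 25 fragments (16.2 to 36.9) and the Uhrf1hepKO summit at −252 bp had 17 (9.9 to 27.2). This was the widest gap of the paired sites, in counts not scaled between the libraries, and the intervals overlapped. By rank the inner site was at percentile 71.2 in WT and 18.1 in Uhrf1hepKO. The window before the TSS, chr11:99040994-99041243 on the plus strand, had 70 bases under the WT peak and 72 under the Uhrf1hepKO peak. It holds 22 CpGs, in capitals, the most of the 10 genes.
Igfbp4: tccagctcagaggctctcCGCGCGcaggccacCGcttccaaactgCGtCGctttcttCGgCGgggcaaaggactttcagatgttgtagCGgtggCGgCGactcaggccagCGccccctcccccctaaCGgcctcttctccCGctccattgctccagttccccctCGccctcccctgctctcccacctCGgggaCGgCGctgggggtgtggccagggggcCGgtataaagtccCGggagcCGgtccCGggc
The CpGs reach from end to end of the window, unlike the 5 scattered CpGs of Igfbp1. The TATA box letters TATAAA occur near its 3′ end, and 11.5% of all genes have them in this window.

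**Figure D3:**
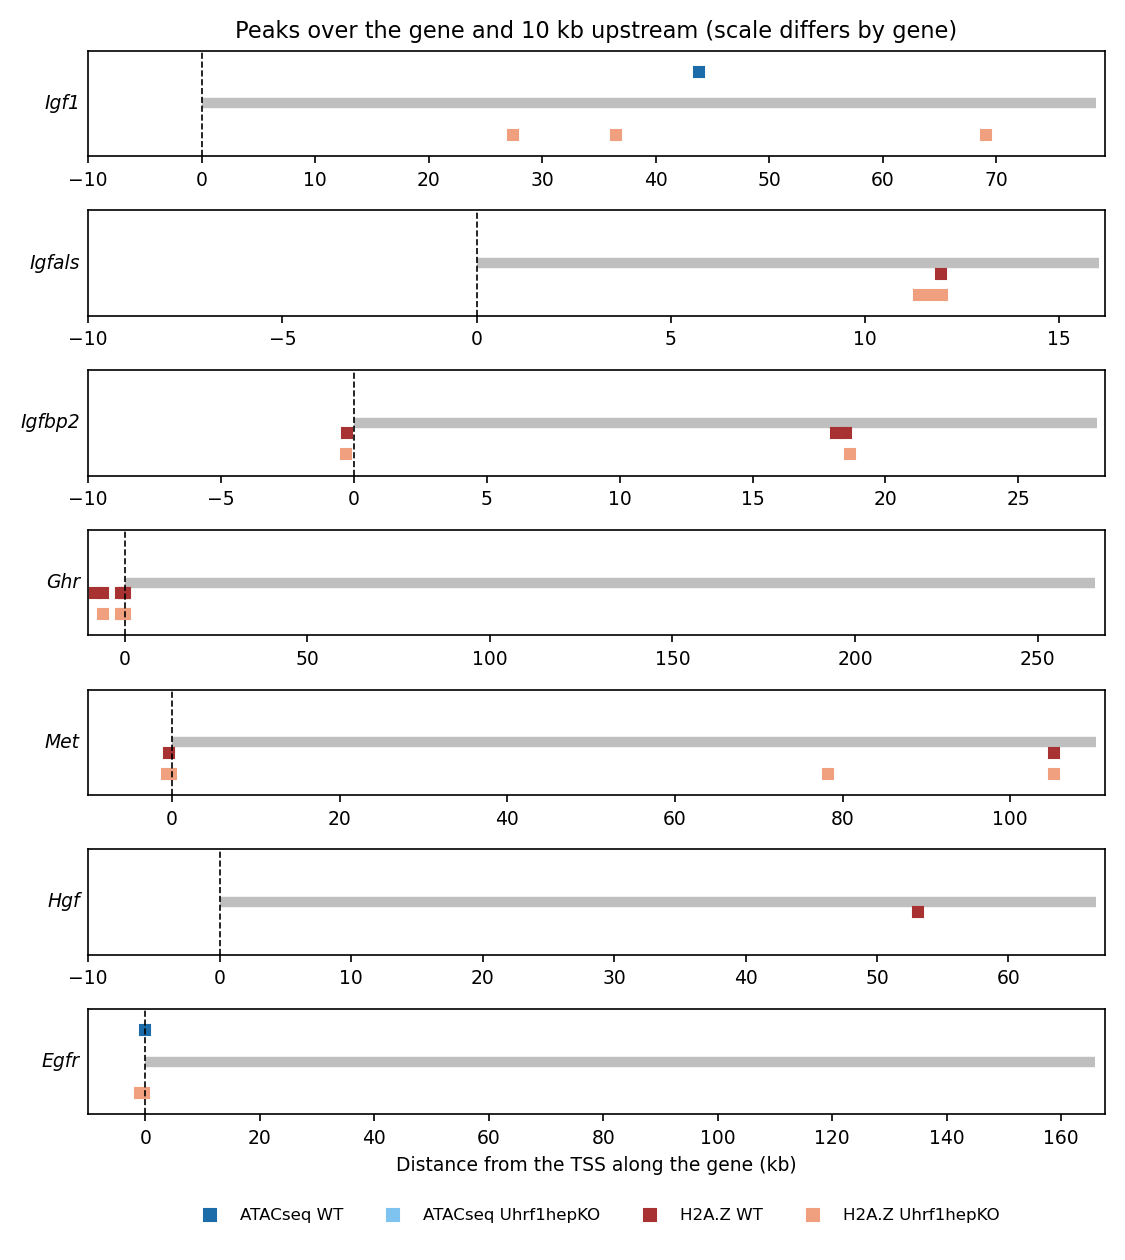
Peaks along 7 genes and 10 kb upstream, by distance from the 5′ end of the gene in kb, with the grey bar as the gene and a separate scale for each. Marks far from the TSS are seen in Igf1, Igfbp2, Met and Hgf, those of Igfals stand at its coding TSS, and the body of Ghr is empty beyond the marks at its TSS.

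Across the 10 genes, 12 of 16 WT H2A.Z peaks met a Uhrf1hepKO peak (75.0%, Wilson 95% interval 50.5 to 89.8), beside 70.0% of all WT H2A.Z peaks. In the other direction it was 12 of 21 (57.1%, 36.5 to 75.5), beside 75.6%. In ATACseq 1 of 3 WT peaks and 1 of 1 Uhrf1hepKO peak met, beside 61.3% and 60.3%. The first interval takes in the value of its whole list, and the second ends just below it. Peaks of 1 gene are not independent, so the intervals are too narrow.

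The 12 H2A.Z pairs had more fragments in WT in 6, more in Uhrf1hepKO in 5 and as many in 1. The Poisson intervals overlapped in 12 of 12, which says little, because each pair was called in both lists and at these counts the intervals are wide. Summits of the 12 pairs were 3 to 167 bp apart with a median of 14 bp, and 66.7% were within 20 bp, beside a median of 18 bp and 54.7% over all pairs. The libraries are not scaled to each other, so these counts do not compare levels between the genotypes.

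**Figure D4:**
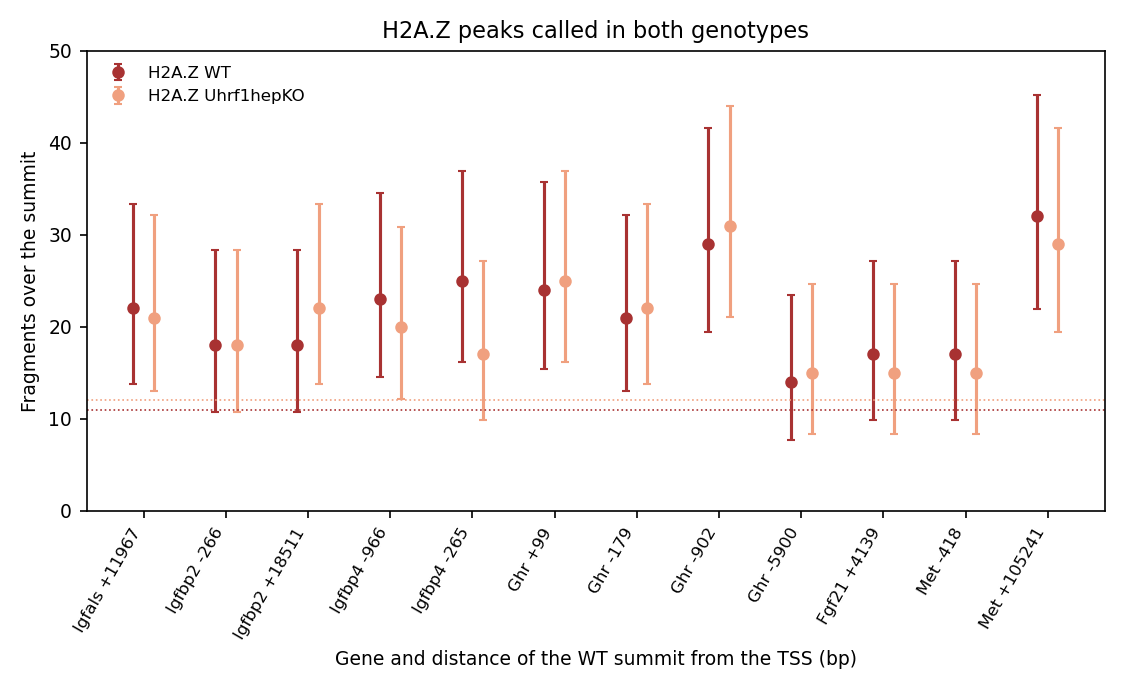
Fragments over the summit at the 12 H2A.Z sites called in both genotypes, named by gene and by the WT summit's distance from the 5′ end of the gene in bp. Bars are exact Poisson 95% intervals for counting error and dotted lines are the fewest fragments of a listed peak, 11 in WT and 12 in Uhrf1hepKO. The intervals overlap at every site, and the widest gap is 25 against 17 fragments at Igfbp4.

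Some peaks had no partner in the other genotype. Of the 21 Uhrf1hepKO H2A.Z peaks 9 were not met, at Igf1 (3), Igfals (2), Met (2) and Egfr (2), with 18 to 27 fragments. In 7 of the 9 the lower end of the Poisson interval was above 11, the fewest fragments of the WT list, beside 47.1% of all such Uhrf1hepKO peaks. The lists are not scaled to each other, so this limit is only approximate. Of the 16 WT peaks 4 were not met, at Igfbp2, Ghr, Fgf21 and Hgf, with 13 to 24 fragments, and in 1 of them the lower end was above 12, beside 24.3% of all such WT peaks. Over the whole lists more H2A.Z peaks were not met in WT (15451) than in Uhrf1hepKO (11490), and in ATACseq the 10 genes had 2 such peaks in WT and 0 in Uhrf1hepKO. Within 500 bp of a peak of the other genotype lay 3 of the 9 and 2 of the 4, with no share over the whole lists to set beside them. The median percentile of the 9 peaks was 36.8, against 24.1 for all Uhrf1hepKO H2A.Z peaks that were not met. The 12 that were met had 38.5, against 59.0 for all that were met. In WT the medians were 31.0 against 27.3 for peaks not met, and 56.6 against 63.6 for peaks met. Igf1 and Egfr were the genes that had H2A.Z peaks in Uhrf1hepKO and none in WT, and Hgf the one with the reverse. Of all protein-coding genes, 2.62% had H2A.Z in their region in Uhrf1hepKO only and 4.54% in WT only. At these 3 genes the calls rest on 3, 2 and 1 peaks.

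**Figure D5:**
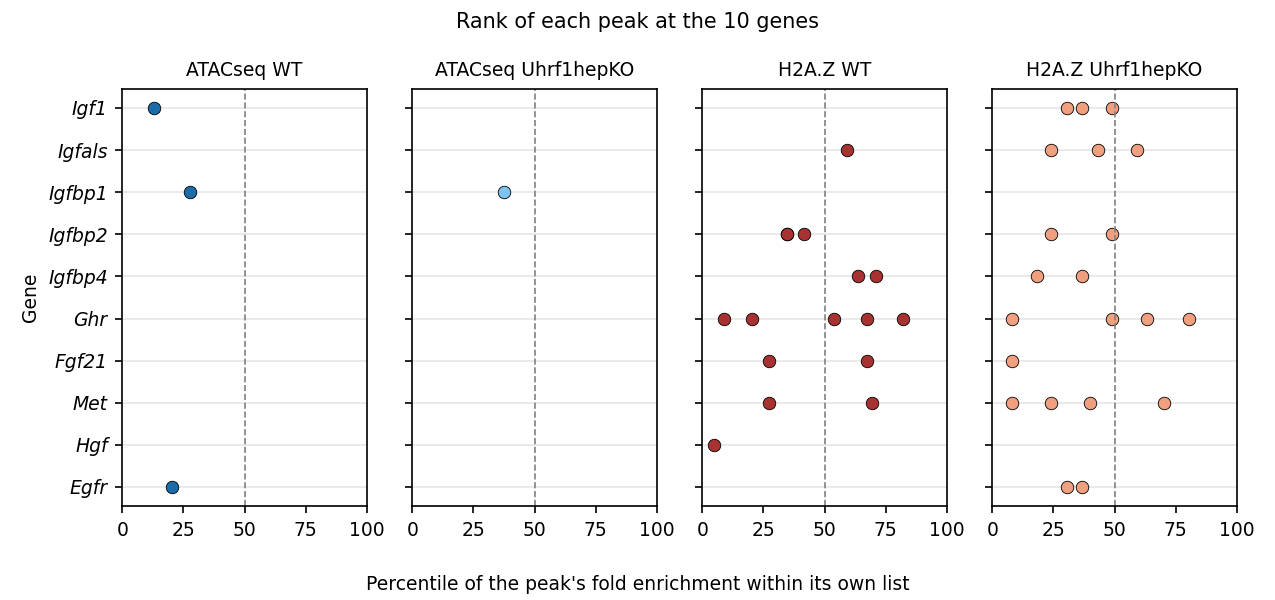
Percentile of the fold enrichment of each peak within its own list, for the 10 genes in the 4 lists, with a dashed line at the median peak. All 4 ATACseq peaks are below the median, and H2A.Z peaks run from 4.93 (Hgf) to 81.9 (Ghr) in WT and from 8.09 to 80.5 in Uhrf1hepKO.

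None of the 4 ATACseq peaks met an H2A.Z peak of the same genotype, and the nearest such peak to any of the 4 was 54999 bp away. Over the whole lists 35.3% of WT and 27.2% of Uhrf1hepKO ATACseq peaks met one. None of the 37 H2A.Z peaks met an ATACseq peak, beside 8.64% and 7.25% over the whole lists. The shortest distance from these 37 was 8349 bp, at Igfals, to an ATACseq peak outside its region. Peaks of the same gene are not independent, so these counts do not set the group apart from the whole lists.

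Igfbp2, Igfbp4, Met and Egfr, with 81, 80, 85 and 60 CpGs within 500 bp of the TSS, belong to the highest class, in which 74.0% of genes had a WT and 71.9% a Uhrf1hepKO H2A.Z call within 1 kb. Among them 3 of 4 had one in WT and 4 of 4 in Uhrf1hepKO. In the middle class, where 55.5% and 53.4% had one, Ghr with 53 CpGs did in both genotypes. Igfals (at its annotated 5′ end) and Fgf21 with 21 each and Igfbp1 with 34 did not. Igfals had H2A.Z within 1 kb of its coding TSS in both genotypes, where the 250 bases before that TSS hold 4 CpGs. In the same highest class 48.1% of genes had a WT ATACseq peak within 1 kb, as Egfr alone of the 4 did. With 60 CpGs, Egfr sits on the boundary of this class, since the middle class also reaches 60 and ties were split by gene order.

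Among motifs in the 250 bases before the first coding transcript, the SP letters were found in 6 of 10 genes, beside 39.9% of all, and the NF-Y letters CCAAT in 1, Hgf, beside 36.1%. The TATA box letters were found in 3, Igf1, Igfbp4 and Fgf21, beside 11.5%, and the HNF1 letters in 2, Igfbp1 and Egfr, beside 5.96%. The E-box letters CACGTG were found in Igfbp2 and Fgf21, beside 6.53%. The STAT letters were found in Igfals, beside 7.22%, and the FOXA letters TGTTTAC in Hgf, beside 2.63%. No match was found to the HNF4A letters CAAAGTCCA, the C/EBP letters or the CREB letters TGACGTCA. With 10 genes, these counts describe the windows only.

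A list of 44 other genes of these pathways gave the setting. In the TSS window, 11 of them had a WT ATACseq peak (25.0%) and 9 a Uhrf1hepKO peak (20.5%), against the 34.4% and 32.4% of all genes given above. H2A.Z peaks were there at 25 of 44 in each genotype (56.8%), beside 58.4% of all genes in WT and 56.5% in Uhrf1hepKO. Of the 44, 23 genes had one in both. By role, WT H2A.Z peaks were at 4 of 9 ligands, 6 of 11 receptors, 5 of 12 binding proteins and proteases and 10 of 12 signalling genes. The last group also held Igf2bp1, which encodes an RNA-binding protein and had no peak there. The highest WT ATACseq folds in these windows were 6.1 at −6486 bp from Shc1, an adaptor of receptor kinases, 5.27 at +622 bp from Cish, an inhibitor induced by growth hormone, and 4.78 at −68 bp from Hbegf, an EGFR ligand. The highest WT H2A.Z folds were 8.77 at −6382 bp from Hbegf, 8.53 at −5948 bp from Cish and 8.53 at −560 bp from Grb2, an adaptor. In the Uhrf1hepKO lists Cish had 8.01 in ATACseq and 9.53 in H2A.Z, on those lists' own scales.

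Some of these 44 genes had a peak in the window in 1 genotype only. In ATACseq they were Igf2, Fgf1, Igfbp7, Pappa and Irs1 in WT and Areg, Igf2r and Gab1 in Uhrf1hepKO, 5 and 3 genes, beside 7.9% and 5.94% of all genes. In H2A.Z they were Fgfr3 and Pappa in WT and Fgfr4 and Socs2 in Uhrf1hepKO, 2 and 2 genes, beside 4.3% and 2.45%. Fgfr4 encodes an FGF receptor and Socs2 a feedback inhibitor of growth hormone signalling. Among the 10 genes, Egfr was such a gene, in WT for ATACseq and in Uhrf1hepKO for H2A.Z. Stat5a and Stat5b, which lie next to each other, share the same peaks.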

How the data were processed

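ATACseq and H2A.Z ChIPseq peak lists from liver, 4 libraries in all, were used as deposited. The authors aligned reads to GRCm38.p4 with BWA-MEM, processed them with PICARD and ran MACS2 on every library by itself, with broad calls for ATACseq. Not given in the sources used here are the MACS2 version, any control and any shift of ATACseq reads. A p-value limit of 0.05 is stated for the calls, while the deposited lists end at q-values of 0.0997 (WT) and 0.0993 (Uhrf1hepKO) in ATACseq and 0.05 and 0.0489 in H2A.Z, so both assays rest on different limits. The deposited fold enrichment is a ratio of pileup to local background, averaged over the region in ATACseq and taken at the summit in H2A.Z. The −log10 p-values and −log10 q-values were deposited on the same basis, and for H2A.Z the authors' caller added the distance of the summit from the peak start. No value was scaled between libraries.

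Peaks on the 19 autosomes, X and Y were used, with 1-based positions. Positions of chromosomes were checked against GRCm38.p6, which has the same primary coordinates. A gene's region was its body joined to 10 kb on either side of the TSS, its 5′ end in GENCODE vM21. Peaks met when they shared 1 bp. Fragments over an H2A.Z summit were the whole number that gave both the deposited fold and Poisson p-value, within 0.001 on the −log10 scale. Repeat-masked bases are the lower-case bases of the RefSeq FASTA. Motifs were searched on both strands. The 10 genes, the pathway and marker lists and the motifs were chosen with earlier results of these data known. All 10 genes were named, and other genes were named where their TSS lies in a region, for the 3 highest WT folds of the pathway list in each assay and for a peak in 1 genotype only. The counting of peaks in TSS windows and the recovery of fragments were tested on simulated data. The analysis ran in Python 3.11.15 with pysam 0.24.0, matplotlib 3.10.9, scipy 1.17.1, pandas 2.3.3 and numpy 2.4.6.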

Additional observations from a re-analysis of the deposited data

How the results depend on the processing

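Of 54 alternatives to the counts and shares at the 10 genes, 36 left the value the same within 1.5 times or within its interval and 18 moved it. Dropping peaks whose fold was under their list's median left 0 WT and 0 Uhrf1hepKO genes with an ATACseq peak within 10 kb, 3 WT and 1 Uhrf1hepKO genes with an H2A.Z peak, 0 ATACseq peaks in each genotype, 8 WT and 7 Uhrf1hepKO H2A.Z peaks, and 37.5% of the WT H2A.Z peaks met. The share of ATACseq peaks met then had no value, since none was left. Within 1 kb, ATACseq peaks were at 1 gene in WT and 0 in Uhrf1hepKO. Counting from any coding TSS gave 2 genes and 2 peaks for Uhrf1hepKO ATACseq, through Igfals. The gene body alone held 6 WT and 10 Uhrf1hepKO H2A.Z peaks and 0 Uhrf1hepKO ATACseq peaks. An overlap of 50% of both peaks left 0% of ATACseq peaks met in both directions, since the Igfbp1 peaks share less. No paired analysis was possible because each condition has 1 library and no result comes from a test. Depth is known only through the lists, so a missing peak is a site below the limit of calling in that library and not one shown to lack signal, and the spread between mice is unknown.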
